A study of Mus musculus with 15 samples.

Results

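B1 elements are short interspersed elements (SINEs) of the mouse genome, and the repeat annotation files them in the family Alu together with the human element of that name. The loci described here are all intervals that the deposited counts list under class SINE and family Alu. They were 88340 of the 8128951 piRNA loci seen in 15 libraries of mouse testis small RNA, and a locus is a single interval with its own start, end and strand, so that reads that differ in length at the same start are different loci. Members were chosen by their annotation and not by any measured value. The family held between 0.376% of all counts in Ψ-IP and 0.539% in flow-through. It was more numerous in loci than the other SINE families B4 (78264 loci), B2 (65961) and MIR (41171).

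B1 arose from 7SL RNA, the RNA of the signal recognition particle, and spread through the genome by copying itself with the reverse transcriptase of other elements. PIWI-interacting RNAs (piRNAs) are small RNAs of the germ line that guide PIWI proteins. In the testis of adult mice most come from long transcripts of defined clusters, made at the pachytene stage of meiosis and cut into piRNAs that usually begin with U and are trimmed at the 3′ end, and a B1 copy inside such a transcript yields piRNAs along with the rest of it. Pseudouridine (Ψ) is an isomer of uridine in RNA. An antibody against Ψ can pull down RNAs that carry it, and the carbodiimide CMC forms an adduct on Ψ that stops reverse transcriptase, which is meant to deplete modified RNAs from a library.

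All libraries came from testes of male C57Bl/6 mice aged 8 weeks, and nothing in the sources used here states whether replicates came from different mice, so that p-values measure the spread between libraries only. There were 3 libraries of each of 5 groups, namely mock-treated and CMC-treated small RNA (made with a NEBNext kit), and the input, the Ψ-IP fraction bound by antibody D347-3 and the unbound flow-through of the immunoprecipitation (made with a Nextflex kit). Total counts per library ran from 24154811 to 58399368 in the first 2 groups and from 11575705 to 25063656 in the other 3. The questions were which piRNAs gained in Ψ-IP over input and over flow-through, and which were lost with CMC.

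Sequence was at hand for Alu loci that lie wholly inside annotated exons (26949 loci with 31.7% of Alu counts), from the GENCODE M21 transcripts of GRCm38, the assembly called mm10. The 4 loci below carry the main contrasts: the locus of Gm14244 that was far above its own flow-through, a second locus of the same gene and repeat name that was below it, the locus of 1700001L05Rik that fell in Ψ-IP, and the most abundant sequenced locus of the CMC set. Each is given 5′ to 3′ as DNA, and capitals mark every T, the base that as U in the RNA could carry Ψ.
Gm14244 locus chr2:127691958-127691987, plus strand, B1F: TaaTaaaaTaagTTcTagaTcaggcTgagT
Gm14244 locus chr2:127691914-127691943, plus strand, B1F: TagcaTagTacTTaagaggcTTgggcaaga
1700001L05Rik locus chr15:83355133-83355162, minus strand, B1F: TgTTgcagTcaaccTgagcTaacaTagTTc
D130017N08Rik locus chr5:143763716-143763745, plus strand, B1F1: TTggacTccTggacagacagacaTacTgcc

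All 4 begin with T. They hold 9, 7, 9 and 6 T in the order given, and each is 30 nt long. The second Gm14244 sequence, below its flow-through, thus has fewer T than the first, above it, but the 1700001L05Rik sequence that fell in Ψ-IP has as many T as the first.

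The family is made of 10 repeat names. Shares given without a group are pooled over the 15 libraries, in which the 6 mock-treated and CMC-treated libraries weigh most. B1 itself held 59.0% of Alu counts at 51481 loci, B1F1 15.9% at 5155 loci, B1F 11.8% at 9883 loci and PB1D10 5.19% at 7503 loci. PB1D9, PB1D7, B1F2, PB1 and PB1D11 followed with 3.58% to 0.50%. FAM, the fossil Alu monomer from which the others are thought to descend, came last with 0.155%. PB1 stands for proto-B1, the group of older monomers between FAM and the modern B1. The order by number of loci was not the same, since B1F and PB1D10 had more loci than B1F1 but fewer counts. By library B1F1 stood above B1F in all 6 mock-treated and CMC-treated libraries and below it in all 9 libraries of the immunoprecipitation.

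**Figure D1:**
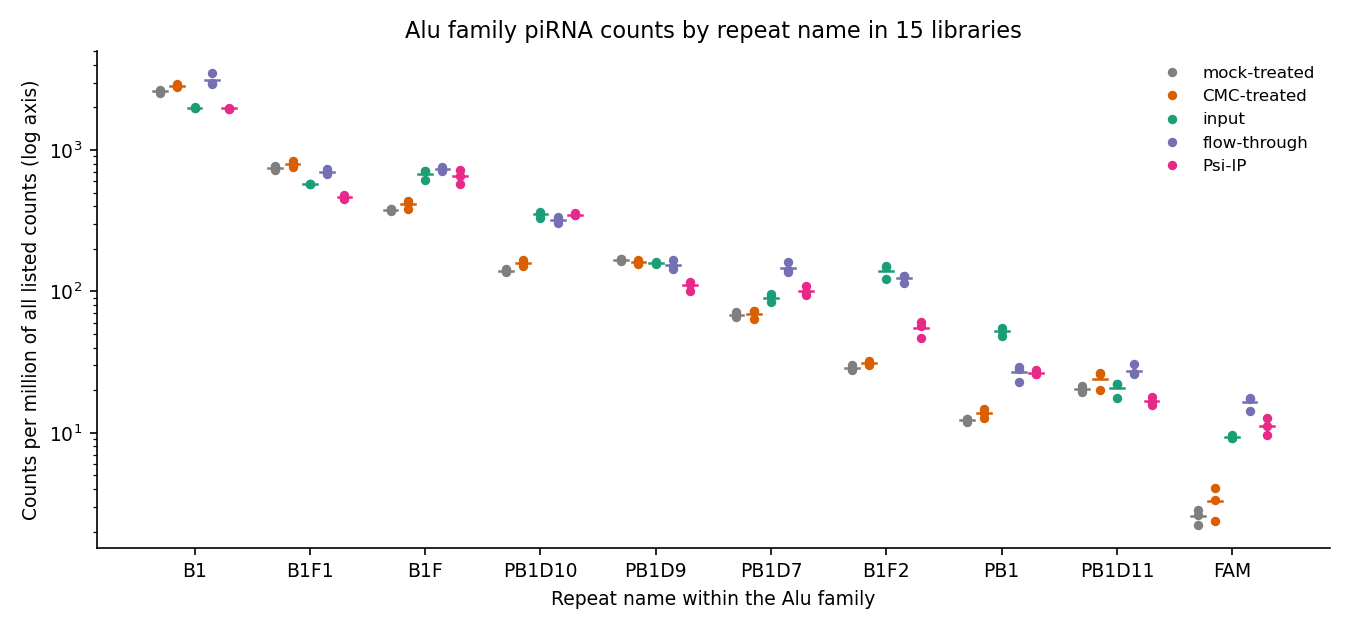
CPM of all listed counts (log axis) of the 10 Alu family repeat names in each of the 15 libraries, 1 point per library and the colour giving the group. B1 stands highest and FAM lowest in every library, and B1F2 and PB1 lie lower in Ψ-IP than in input in all 3 libraries.

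Alu piRNAs were uneven in level. Of the 88340 loci, 57.2% were seen in 1 library only, while 1046 loci seen in all 15 libraries held 59.9% of Alu counts. The loci share 32323 distinct 5′ ends, of which the top 10 held 20.7% of the counts and the top 100 held 54.7%. Nearly all Alu counts (99.8%) lay inside the 647 piRNA clusters listed by the study, 484 of which contained an Alu locus. The authors took as piRNA reads those that intersect piRNA clusters, so this share follows from that selection and is not a result about B1. By the GENCODE annotation 48.7% of the counts were intergenic, 22.7% lay in exons of noncoding transcripts, 19.5% in introns and 9.05% in untranslated regions, and 11 loci lay in coding exons. A second repeat was listed at the same interval for 3513 loci, which held 3.92% of the counts.

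The most abundant 5′ end, at base 74657263 of the plus strand of chr15, alone held 6.33% of Alu counts. It lies in a B1 element outside annotated genes, in a cluster whose Alu loci span chr15:74649294-74657386, and it made up 75.4% of that cluster's Alu counts. Its reads were 29 nt long in 85.7% of the mock-treated counts and in 42.1% to 46.0% of the counts of the 3 groups made with the other kit. Without this 5′ end the commonest length of Alu piRNAs was 30 nt in every library. With it the commonest length was 29 nt in all 6 NEBNext libraries, at 23.8% to 26.2% of Alu counts, and 30 nt in all 9 Nextflex libraries.

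**Figure D2:**
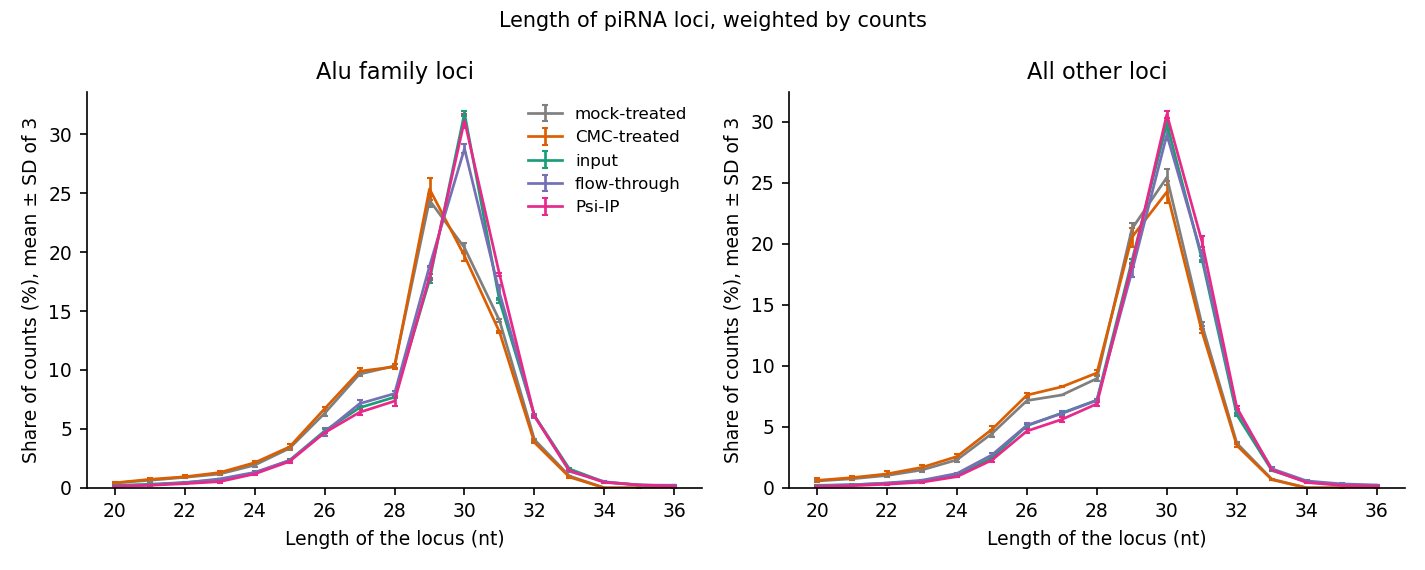
Share of counts (percent, mean ± SD over 3 libraries) at each read length in nt for each group, Alu loci beside all other loci. Alu reads of the mock-treated and CMC-treated groups are commonest at 29 nt, those of the other groups and all other loci at 30 nt.

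Strand relative to the element could be assigned for part of the loci with a sequence. Exonic sequence around them was aligned in both orientations to the RNA of the signal recognition particle named above. A strand was assigned where the scores differed by at least 10. Sense and antisense shares given here and below rest on likeness to that RNA. B1F1 reads were antisense to their element in 95.9% of the counts with a sequence, most of them from D130017N08Rik. PB1 and PB1D10 reads were sense in 69.4% and 69.0%. Pairs of 5′ ends on opposite strands that overlap by 10 nt, the mark that cleavage by a partner PIWI protein leaves, were the commonest overlap between 1 and 25 nt in 4 of the 5 groups, for example 210 pairs in mock-treated against a median of 165 per overlap. In CMC-treated libraries the overlap of 25 nt was commonest, with 199 pairs against 195 at 10 nt.

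Against input, the summed Alu family did not pass the test. Input stood at 4157, 3926 and 4035 CPM (relative to the TMM-adjusted total of each library) and Ψ-IP at 3902, 3653 and 3804 CPM. The groups did not overlap, and the log2 difference was -0.09 (SE 0.04, n = 3 per group, edgeR adjusted p = 0.0561 over 30 families), where 23.3% of all families were higher and 16.7% lower at an adjusted p below 0.01. With scaling factors taken from the table of loci the difference was -0.23 and passed, with an edgeR adjusted p of 0.00412, and with the replicate number as a block it also passed (-0.09, edgeR adjusted p = 0.00686), although the numbers were not taken to pair these libraries. Among the other SINE families B2 (-0.12) and B4 (-0.07) did not pass either, and MIR was lower by 0.31 on the log2 scale (edgeR adjusted p = 0.000255). The ratio of Alu to MIR counts within a library rose from input to Ψ-IP by 0.21 on the log2 scale in non-overlapping libraries (exact permutation p = 0.1, the smallest that 3 against 3 allows; adjusted over 9 ratios 0.15). The ratios to B2 and B4 differed by 0.03 and -0.03, in libraries that overlapped (exact permutation p = 0.3 and 0.7).

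The repeat names moved apart. In Ψ-IP against input 4 names, written here with their log2 differences, fell: B1F2 (-1.34), PB1 (-0.95), PB1D9 (-0.51) and B1F1 (-0.29), with edgeR adjusted p between 6.33e-06 and 0.00110. By edgeR 0 names were higher (0 by DESeq2, and 2, FAM and PB1D7, at an unadjusted p below 0.05), and 13.6% of all 464 names tested were higher and 11.6% lower. B1F2 fell from 148, 123 and 147 CPM in input to 60.5, 48.1 and 56.7 CPM in Ψ-IP, and the groups were far apart. PB1 fell from 54.7, 52.7 and 48.3 CPM to 27.7, 27.1 and 25.8 CPM. B1, the main name, stood at 1975 ± 34.1 CPM in input and 1987 ± 41.1 CPM in Ψ-IP (mean ± SD, n = 3), a log2 difference of 0.01 (SE 0.04) whose sign changed under other settings.

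Single loci were tested where they had more than 20 counts in total over the 9 libraries of the immunoprecipitation, which left 3824 Alu loci, 6.99% of those seen there, with 78.1% of the Alu counts. Of these, 109 (2.85%) stood higher and 322 (8.42%) lower relative to input in Ψ-IP by edgeR at an adjusted p below 0.01, beside 5.45% higher and 10.7% lower among all 686863 loci tested. Among loci averaging 50 counts or more, 18.5% of 189 Alu loci were higher and 31.2% lower, beside 26% and 27.4% of all such loci. The median log2 difference over the Alu loci tested was -0.11, and over all loci -0.10. The 109 higher loci had 77 distinct 5′ ends in 30 clusters and a median difference of 1.74. The 322 lower loci had 158 distinct 5′ ends in 43 clusters and a median of -2.54, or -2.42 with the 32 loci that had a group at 0 set to their bound of 3 counts. Both counts leaned on single input libraries, with 42 higher and 164 lower without input replicate 1 and 43 higher and 199 lower without input replicate 3. Over all loci these fits gave 2.53% and 6.17%, and 2.52% and 7.10%. DESeq2 called 55 higher and 179 lower, beside 3.37% and 6.56% of all loci.

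**Figure D3:**
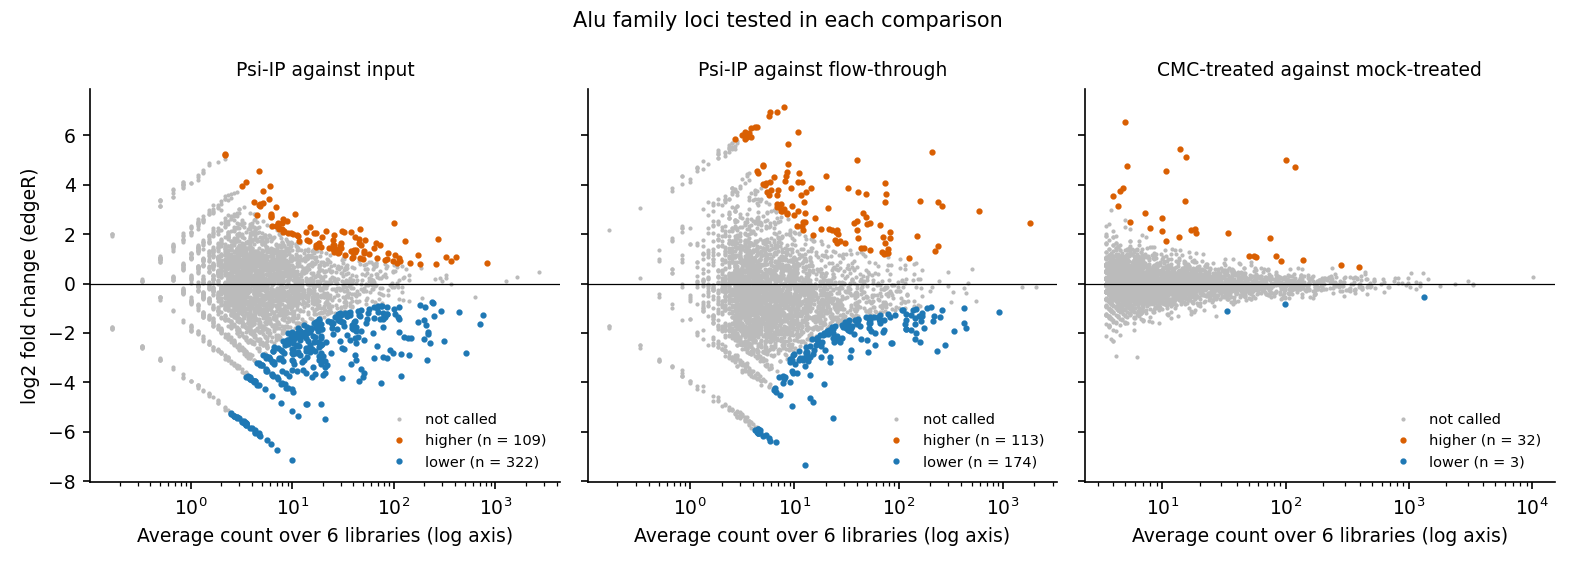
Log2 difference of each tested Alu locus against its average count (log axis) in the 3 comparisons, with called loci coloured (edgeR adjusted p below 0.01). Called loci lie on both sides in the comparisons of Ψ-IP, and nearly all lie above 0 with CMC.

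The most abundant locus of the immunoprecipitation was the first Gm14244 sequence above, chr2:127691958-127691987, in an exon of that noncoding antisense gene. It stood at 158, 116 and 147 CPM in input and 199, 162 and 217 CPM in Ψ-IP. The groups did not overlap, but the log2 difference of 0.46 (SE 0.19) did not pass (edgeR adjusted p = 0.0598). A PB1D10 locus in an exon of the lincRNA 4933435G04Rik (chr7:73124978-73125008, plus strand) rose from 41.2, 34.5 and 37.6 CPM to 65.7, 71.2 and 66.6 CPM. Its log2 difference was 0.84 (SE 0.21, edgeR adjusted p = 0.000506), and it no longer passed without input replicate 3 (adjusted p = 0.0227) or with a filter of more than 5 counts in total (0.68, adjusted p = 0.0181). A B1 locus in an intron of Stox1, on the strand opposite to that gene (chr10:62689086-62689115), fell from 63.2, 61.1 and 73.5 CPM to 29.3, 31.9 and 21.4 CPM, by 1.26 on the log2 scale (SE 0.21, edgeR adjusted p = 8.82e-08). The 29-nt and 30-nt loci at the chr15 5′ end differed by 0.28 and 0.10, within the spread of the libraries (edgeR adjusted p = 0.314 and 0.744).

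The largest rises and falls among loci averaging 50 counts or more are given next. An intergenic B1 locus at chr9:67694550-67694580 (minus strand) rose from 1.93, 1.70 and 2.56 CPM in input to 11.8, 10.3 and 11.7 CPM in Ψ-IP, a log2 difference of 2.44 (SE 0.28). Next came 2 loci of 29 and 28 nt that share a 5′ end at chr7:30137589 (1.79 and 1.77). For the 28-nt locus the nearest libraries were 2.90 CPM in input and 3.29 CPM in Ψ-IP. After them came a B1F locus at chr18:67037005-67037034 (1.74) and a B1F1 locus at chr10:62678507-62678538 (1.64), which lies in an intron of Stox1 on the strand opposite to that gene. The largest fall was at a 5′ end of B1 at chr7:73137906, which held 3.34% to 3.8% of Alu counts in the mock-treated and CMC-treated libraries but 0.705% to 0.727% in input, and whose 31-nt locus dropped from 14.2, 12.5 and 11.5 CPM to 0.779, 0.929 and 1.08 CPM (log2 difference -3.74, SE 0.31). Its 30-nt locus fell by 3.03 on the log2 scale. The 1700001L05Rik sequence above fell from 7.34, 2.41 and 6.12 CPM to 0.260, 0.464 and 0.515 CPM (log2 difference -3.62, SE 0.39). A pair of B1F2 loci that share a 5′ end and differ by 1 nt at the 3′ end, in an intron of Cyp19a1, the gene of the oestrogen-making enzyme aromatase, fell by 3.08 and 3.03. For all of these the 2 groups did not overlap, and edgeR adjusted p ran from 7.71e-29 to 7.35e-07.

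Summed by cluster, Alu counts rose in 10 and fell in 20 of 187 clusters in Ψ-IP against input (edgeR adjusted p below 0.01), beside 9.26% and 7.96% of all 1997 sums of a family in a cluster. The median log2 difference was -0.01. Without input replicate 1 the counts were 6 and 10, without input replicate 3 5 clusters rose, and 13 fell without input replicate 2 and 11 without Ψ-IP replicate 3. Shares of all sums called in the same fits are not given, so whether these drops are particular to Alu counts cannot be told. The richest cluster, that of the lincRNA D130017N08Rik with Alu loci over chr5:143758939-143772646, held 12.8% of Alu counts, 97.6% of them B1F1. Its Alu sum fell from 399, 418 and 403 CPM to 348, 346 and 333 CPM (-0.25, SE 0.05, edgeR adjusted p = 0.00155). The chr15 cluster of the top 5′ end rose from 263, 244 and 275 CPM to 317, 292 and 364 CPM (0.32, SE 0.08, edgeR adjusted p = 0.00741). Dropping any library but Ψ-IP replicate 2 ended the call, with an adjusted p of up to 0.0406, as did an average of 50 counts (0.0134) and 24 to 33 nt only (0.0122). The Stox1 cluster fell by 0.33 on the log2 scale.

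Clusters are named by the gene, on either strand, that holds the largest share of their Alu counts. That share was 23.8% for 4933435G04Rik, 3.73% for Zfp382, 0.450% for Dlg5 and 0.00317% for Lrrc37a, so most Alu counts of these clusters lay outside the named gene. The largest cluster rises were in the clusters of Dcaf10 on chr4 (1.27), Zfp382 on chr7 (1.24), Brwd1 on chr16 (1.00) and Nr2c2 on chr6 (0.83), and in a cluster with no gene at its Alu loci on chr7 (0.90). Alu counts in the Nr2c2 cluster, 99.6% of them PB1D10, rose from 42.9, 37.7 and 39.2 CPM to 71.3, 70.2 and 72.3 CPM, with the libraries of each group close together. The largest falls were in the clusters of Bcl2l13 on chr6 (-1.92), 1700001L05Rik on chr15 (-1.61), Gm41109 on chr14 (-1.29), Gm19265 on chr6 (-1.09) and Dlg5 on chr14 (-0.90). The 1700001L05Rik cluster, 98.6% B1F, fell from 138, 102 and 140 CPM to 47.0, 41.0 and 37.3 CPM (SE 0.12, edgeR adjusted p = 9.50e-07). The calls at Bcl2l13 and at Gm41109 rested on few counts and were lost without some single libraries, with adjusted p up to 0.0222 and 0.0494.

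Flow-through and input give different references for the same Ψ-IP libraries, so the comparisons share the Ψ-IP side and are not independent. Against flow-through the Alu family fell in Ψ-IP, from 6093, 5192 and 5124 CPM to 3819, 3596 and 3699 CPM, with a log2 difference of -0.56 (SE 0.06, edgeR adjusted p = 4.86e-06), where 26.7% of 30 families were higher and 30% lower. With scaling factors from the table of loci it was -0.24 and did not pass (edgeR adjusted p = 0.0200). B2 (-0.41), MIR (-0.30) and B4 (-0.17) also fell. Within a library the ratio of Alu to each of them was lower in Ψ-IP than in flow-through, by 0.15 for B2, 0.39 for B4 and 0.26 for MIR on the log2 scale, in non-overlapping libraries for each (exact permutation p = 0.1, adjusted 0.15).

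Against flow-through 7 names fell in Ψ-IP and 0 rose by edgeR (0 also by DESeq2 and at an unadjusted p below 0.05), where 22.9% of 455 names were higher and 21.8% lower: B1F2 (-1.17), PB1D11 (-0.70), B1 (-0.66), B1F1 (-0.58), PB1D7 (-0.54), FAM (-0.54) and PB1D9 (-0.47), with edgeR adjusted p from 6.26e-06 to 0.00788. B1 stood at 3441, 2988 and 2956 CPM in flow-through and at 1971, 1997 and 1957 CPM in Ψ-IP. FAM, the least abundant, lost its call without flow-through replicate 1 or 2 or Ψ-IP replicate 1 or 2, with an edgeR adjusted p of up to 0.0411. PB1D10 did not pass at 0.13 (SE 0.06), with flow-through at 320 ± 12.3 CPM and Ψ-IP at 351 ± 7.69 CPM, and its sign turned without loci listed under a second repeat (-0.0110). PB1 did not pass either, at 26.8 ± 3.68 CPM in flow-through and 26.7 ± 0.728 CPM in Ψ-IP, so that input stood above both fractions for this name.

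At single loci 113 (2.96%) were higher and 174 (4.55%) lower in Ψ-IP than in flow-through, beside 9.30% and 3.56% of all loci tested. Among loci averaging 50 counts or more 11.8% of 220 Alu loci were higher and 36.8% lower, beside 29.5% and 24.2% of all such loci. The median log2 difference was -0.52 over the Alu loci and -0.02 over all loci. The higher loci had 72 distinct 5′ ends in 32 clusters, and the lower loci 113 in 41 clusters. Leaving out Ψ-IP replicate 2 or 3 left 72 or 66 higher loci, and leaving out Ψ-IP replicate 1, 2 or 3 left 93, 98 or 96 lower loci. In the same fits 6.68% and 6.52% of all loci were higher, and 2.36%, 2.22% and 2.57% lower. DESeq2 called 84 higher and 112 lower, beside 7.50% and 2.80% of all loci.

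Neighbouring B1F loci of Gm14244 went in both directions. The first sequence above, chr2:127691958-127691987, stood at 35.2, 47.2 and 37.4 CPM in flow-through and at 222, 184 and 256 CPM in Ψ-IP, a log2 difference of 2.47 (SE 0.25, edgeR adjusted p = 7.50e-20). The second, chr2:127691914-127691943, stood at 79.6, 74.6 and 79.9 CPM in flow-through and 35.7, 28.7 and 42.0 CPM in Ψ-IP, a log2 difference of -1.13 (SE 0.26, edgeR adjusted p = 0.000175). The libraries did not overlap at either locus. The 4933435G04Rik locus of PB1D10 at chr7:73124978 rose from 13.1, 8.79 and 8.71 CPM to 73.3, 81.0 and 78.5 CPM (2.92, SE 0.28, edgeR adjusted p = 5.65e-23). The 29-nt and 30-nt loci of the chr15 5′ end did not pass (-0.14 and -0.13).

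Among loci averaging 50 counts or more, the largest rise over flow-through was the 29-nt locus at chr7:30137589-30137617, from 0.950, 1.13 and 0.354 CPM to 24.5, 51.9 and 25.5 CPM (5.33, SE 0.36), where Ψ-IP replicate 2 stood above the other 2 Ψ-IP libraries. It was followed by the 31-nt and 30-nt loci of a B1 element in an intron of Gnb1l (chr16:18502624, 4.09 and 3.36) and of a PB1D10 element in an untranslated region of Nr2c2 (chr6:92168924, 3.62 and 3.32), which encodes an orphan nuclear receptor. The Nr2c2 loci were also listed under a second repeat. The largest falls above the same average were at a B1 5′ end at chr17:66206928, in loci of 23 and 24 nt (-2.78 and -2.42), in B1F1 loci at chr10:62678544 (-2.72 and -2.48), and in the 31-nt locus at chr7:73137906 (-2.48). The B1F1 loci lie in an intron of Stox1 on the strand opposite to that gene. All 10 of these loci had non-overlapping groups, with edgeR adjusted p from 2.72e-46 to 6.43e-08.

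By cluster, Alu counts rose in 8 and fell in 51 of 205 clusters against flow-through, beside 17.0% and 12% of all 2006 sums, and the median log2 difference was -0.59. Only 4 rose without Ψ-IP replicate 1 and 4 without flow-through replicate 2, fits for which the share over all sums is not given. The rises were led by the clusters of Zfp382 (2.20), Nr2c2 (2.02), Gnb1l (1.29) and Dcaf10 (0.78), and that of Gm14244 rose from 229, 244 and 236 CPM to 394, 308 and 392 CPM (0.63, SE 0.09). Of the 51 falls, only those among the clusters richest in Alu counts are given. Of the 5 clusters richest in Alu counts, those of D130017N08Rik (-0.41), Stox1 (-0.85) and a cluster with no gene at its Alu loci on chr9 (-0.53) fell. The cluster of 4933435G04Rik was higher by 0.29 (SE 0.08, edgeR adjusted p = 0.00715, above 0.01 without any of 5 single libraries and, at 0.0115 to 0.0215, with DESeq2's size factors, an average of 50 counts and 24 to 33 nt only). The chr15 cluster, at -0.34, did not pass (edgeR adjusted p = 0.0110) but passed under 5 other settings (DESeq2, its size factors in edgeR, an average of 50 counts, 24 to 33 nt only and the block, adjusted p from 0.000323 to 0.00418) and without Ψ-IP replicate 3 or flow-through replicate 2 or 3. Set side by side, the Stox1 cluster stood at 365 CPM in the middle input library, 293 in the middle Ψ-IP library and 513 in the middle flow-through library.

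**Figure D4:**
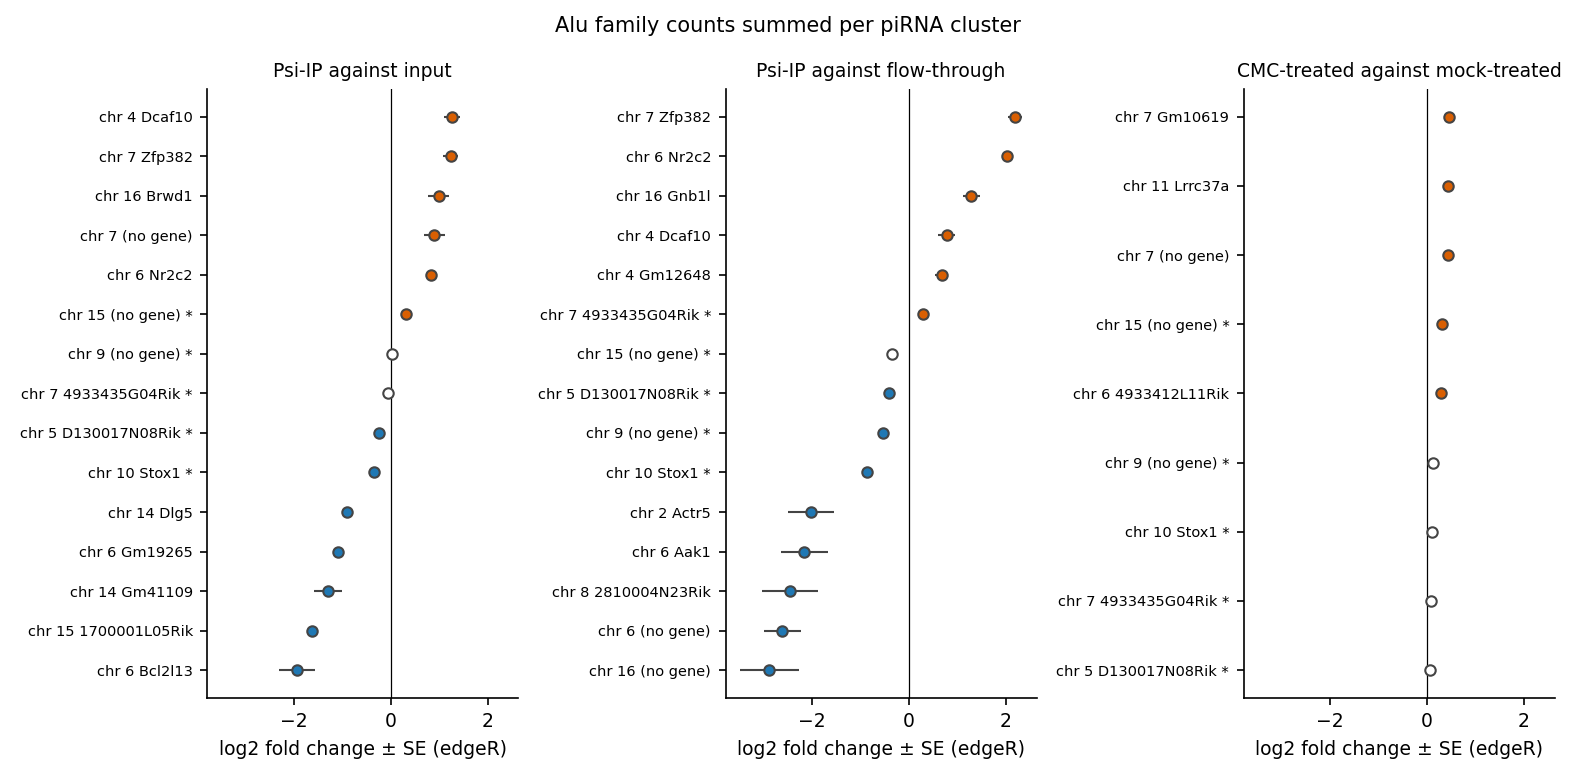
Log2 difference (± SE) of Alu counts summed per piRNA cluster, in the 3 comparisons, for the 5 clusters richest in Alu counts (asterisk) and those with the largest called differences. Filled points passed an edgeR adjusted p of 0.01, and most filled points of the flow-through comparison lie below 0.

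The Alu family was not lower with CMC. Mock-treated libraries stood at 4099, 4206 and 4263 CPM and CMC-treated libraries at 4428, 4471 and 4657 CPM. All 3 CMC-treated libraries lay above all mock-treated libraries, and the log2 difference of 0.11 (SE 0.03) had an edgeR adjusted p of 0.0345, where 3.45% of 29 families were higher and 3.45% lower. With the replicate number as a block it passed (edgeR adjusted p = 0.00659), and it also passed with DESeq2 (0.11, adjusted p = 0.000766). B2 and B4 differed by 0.01 each and MIR by 0.17. The ratio of Alu to B2 and to B4 within a library rose by 0.09 and 0.10 on the log2 scale with CMC, in non-overlapping libraries (exact permutation p = 0.1, adjusted 0.15), while the ratio to MIR was at -0.06 in libraries that overlapped (exact permutation p = 0.5). By edgeR and by DESeq2 0 repeat names passed in either direction, where 2.11% of 473 names were higher and 4.02% lower, and PB1D10 came nearest at 0.16 (SE 0.04, edgeR adjusted p = 0.0339). At an unadjusted edgeR p below 0.05, 4 names (B1, B1F, PB1D10 and PB1D11) were higher and 0 lower.

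Of 3832 Alu loci tested in the CMC set, with 86.8% of its Alu counts, 32 (0.835%) were higher and 3 (0.0783%) lower with CMC, beside 1.07% and 0.654% of all 556583 loci. The block gave 37 higher and 6 lower, beside 1.24% and 1.03% of all loci. DESeq2 gave 20 and 2, beside 0.651% and 0.489% of all loci. Of 481 Alu loci averaging 50 counts or more, 12 were higher and 2 lower, beside 2.67% and 2.77% of all such loci. Without mock-treated replicate 2 there were 19 higher and 0 lower, without CMC-treated replicate 2 there were 0 lower, without mock-treated replicate 3 there was 1 lower, and without CMC-treated replicate 1 or 3 there were 5. Over all loci 0.582% were higher and 0.227% lower without mock-treated replicate 2, and 0.277%, 0.391%, 0.959% and 0.467% were lower in the other 4 fits in the order given. The median log2 difference was -0.01 over Alu loci and 0.00 over all. The 5 most abundant loci, among them the D130017N08Rik sequence above at 53.8, 66.1 and 75.4 CPM without CMC and 59.5, 58.7 and 74.0 CPM with it, did not pass.

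Among loci averaging 50 counts or more, the 2 that rose most with CMC were shortened forms of the most abundant Alu piRNA. The main form, chr15:74657263-74657291, stood at 271, 243 and 243 CPM without CMC and 341, 304 and 278 CPM with it, a log2 difference of 0.29 that did not pass (edgeR adjusted p = 0.175). The form that starts 1 nt downstream had 7, 9 and 7 counts in mock-treated libraries and 296, 146 and 144 in CMC-treated libraries (log2 difference 4.99, SE 0.24, edgeR adjusted p = 3.83e-20). The form that starts 2 nt downstream had 9, 13 and 12 counts and 291, 174 and 219 counts (4.70, SE 0.22, edgeR adjusted p = 2.58e-20). Both end at the same base as the main form, and their groups lie far apart. The next largest rises among loci averaging 50 counts or more were PB1D10 loci in an intron of Gm10619 at chr7:73803666-73803691 (1.83) and chr7:73803709-73803731 (1.13) and a B1 locus in an intron of 1700121C08Rik at chr4:123835257-123835284 (1.12). The call at chr7:73803709 was lost with DESeq2, in the fit of loci averaging 50 counts or more, without mock-treated replicate 1 or 3 (adjusted p between 0.0138 and 0.0231) and without CMC-treated replicate 3 (0.126), whose 3.15 CPM was the highest of its group against 1.45 and 1.58. The falls were at B1 loci of chr19:4798331-4798358 (-0.84, edgeR adjusted p = 0.00236) and chr2:92568222-92568249 (-0.53, edgeR adjusted p = 0.00443). Both calls were lost without CMC-treated replicate 2 or mock-treated replicate 2 or 3, and the second also without mock-treated replicate 1, with adjusted p up to 0.0589.

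Shortened 5′ ends were then counted over all Alu piRNAs of the CMC set, a count chosen after seeing these loci. Reads with the same 3′ end were grouped, the 5′ end with most counts over both groups was taken as the reference, and ends with under 100 counts were left out. At the chr15 reference the share of counts 1 nt downstream was 0.105%, 0.0848% and 0.117% in mock-treated libraries and 1.89%, 1.95% and 1.89% after CMC, and 2 nt downstream it was 0.0952%, 0.143% and 0.165% against 1.86%, 2.25% and 2.84%. These are descriptions, since that end was chosen for its rise. At the other 825 Alu 3′ ends the share 1 nt downstream was 5.21% ± 0.0678 without CMC and 5.82% ± 0.225 with it (mean ± SD, n = 3, exact permutation p = 0.1), and 2 nt downstream 4.34% ± 0.177 and 5.0% ± 0.321 (exact permutation p = 0.1), in non-overlapping libraries for both. At the 126164 ends of all other loci the shares were 3.22% and 3.77% at 1 nt, and 2.82% and 3.34% at 2 nt. The share 1 and 2 nt downstream was higher in every CMC-treated than in every mock-treated library at 102 of 833 Alu ends (12.2%), beside 13.6% of all ends, and lower at 21 (2.52%), beside 1.49%.

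**Figure D5:**
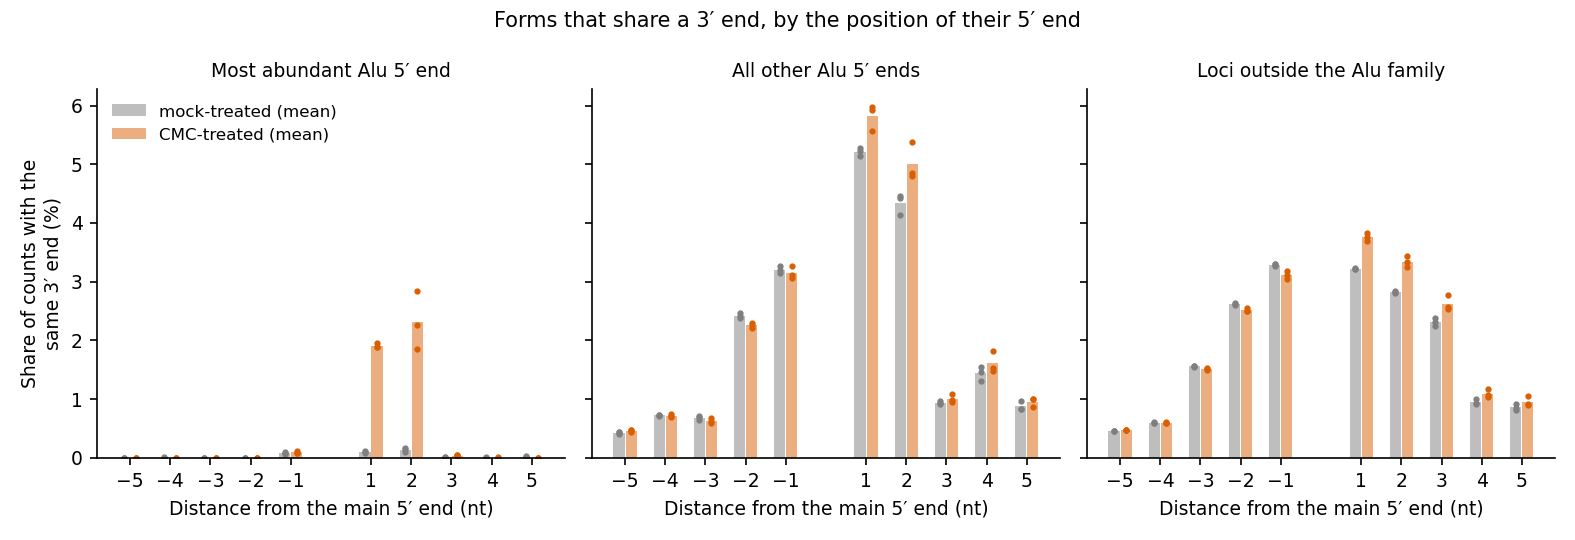
Share of counts (percent) with the same 3′ end whose 5′ end lies 1 to 5 nt upstream (negative) or downstream of the main 5′ end, which is not drawn, for the most abundant Alu 5′ end, all other Alu 5′ ends and loci outside the family. Bars give the mean of 3 libraries and points the libraries. Bars at 1 and 2 nt downstream are higher with CMC in all 3 panels, from 0.102% to 1.91% at 1 nt for the most abundant end.

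Alu counts rose with CMC in 5 and fell in 0 of 229 clusters by edgeR, beside 0.831% and 1.34% of all 2165 sums. At an unadjusted p below 0.05, 34 Alu clusters (14.8%) were higher and 11 (4.80%) lower, beside 9.88% and 11.9% of all sums, and the block and DESeq2 each gave 1 lower. The rises were in the clusters of Gm10619 on chr7 (0.46), Lrrc37a on chr11 (0.43) and 4933412L11Rik on chr6 (0.28), in a cluster with no gene at its Alu loci on chr7 (0.43) and in the chr15 cluster (0.31). The cluster named by Lrrc37a rose from 80.6, 71.4 and 71.5 CPM to 102, 100.5 and 98.8 CPM (SE 0.05, edgeR adjusted p = 0.000830), and the groups were well apart. Lrrc37a itself held 0.00317% of that cluster's Alu counts. The chr15 cluster rose from 369, 341 and 331 CPM to 452, 446 and 394 CPM. Its call was lost without any of 4 single libraries (edgeR adjusted p up to 0.0361), and the number of clusters that rose was 1 without CMC-treated or mock-treated replicate 2, 2 without mock-treated replicate 3, 3 without mock-treated replicate 1 and 8 without CMC-treated replicate 1. How many of all sums rose in those fits is not given, so these numbers cannot be set against a background.

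Ψ-IP and CMC ask for the same base in opposite ways, so the loci of interest are those higher in Ψ-IP and lower with CMC. Of 1691 Alu loci tested in both sets, 60 were higher in Ψ-IP than in input, 2 were lower with CMC and 0 were both. Of all 293568 loci tested in both sets, 23101 were higher, 3198 were lower and 875 (0.298%) were both. Since 2 Alu loci were lower with CMC, at most 2 could have been both, and no conclusion is drawn from the 0. DESeq2 and the filter at an average of 50 counts also gave 0 Alu loci, where 0.204% and 2.05% of all loci were both, as did the block, and 1 locus was both without CMC-treated replicate 1 or without Ψ-IP replicate 1. A single Alu locus was lower in both and another was lower in Ψ-IP and higher with CMC (0.0591% each), beside 0.0576% and 0.190% of all loci. The 2 sets were made with different kits, so levels were not tested between them. Where shares of both sets are given side by side above, their difference cannot be told apart from that of the kits.

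Base content could be read for 30.5% of Alu loci only, so a check over the whole family is void and the following describes exonic loci. Reads began with T in 92.3% ± 0.170 of the counts in Ψ-IP, 91.6% ± 0.385 in input and 89.8% ± 0.452 in flow-through, and in 91.2% ± 0.684 with CMC against 92.0% ± 0.118 in mock-treated libraries (mean ± SD, n = 3). T made up 28% ± 0.129 of all bases in Ψ-IP, 26.7% ± 0.0517 in input and 26.4% ± 0.220 in flow-through, and 25.8% ± 0.260 with CMC against 26.5% ± 0.204 in mock-treated libraries. In each of these comparisons the 3 libraries of a group lay wholly on one side of those it was set against (exact permutation p = 0.1 each, the smallest possible). Among loci called in Ψ-IP against input the median share of T was 32.3% in the 33 higher loci with a sequence, 26.8% in the 106 lower and 27.4% in those not called. Against flow-through it was 30% in 37 higher loci, 29.3% in 40 lower and 27.3% in those not called, so that higher and lower loci lay close together there. With CMC it was 40.6% in the 4 higher loci with a sequence and 29% in those not called, and no lower locus had a sequence. Reads sense to their element made up 17.3% ± 0.790 of the counts with a sequence in Ψ-IP, 14% ± 0.289 in input and 9.11% ± 0.448 in flow-through (exact permutation p = 0.1 each). Without the 4933435G04Rik locus of PB1D10 at chr7:73124978, the most abundant sense locus, these shares were 13.4%, 12.1% and 8.55%, still in non-overlapping libraries (exact permutation p = 0.1 each), a value added after seeing the data. Antisense reads made up 39.1% ± 0.951 in Ψ-IP and 40.1% ± 2.47 in input, which overlapped (exact permutation p = 0.7), and 50.3% ± 1.34 in flow-through (exact permutation p = 0.1 against Ψ-IP). Without the first Gm14244 sequence above they made up 44.8%, 43.6% and 51.6%, so that the difference from input turned and that from flow-through went from -11.3 to -6.77 percentage points. That locus was not assigned a strand, so leaving it out changed only the total behind these shares. Counts not assigned a strand made up 39.5% (flow-through replicate 1) to 47.2% (input replicate 1) of the counts with a sequence in the immunoprecipitation libraries.

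Lengths of Alu piRNAs differed little. Reads of 29 to 31 nt were 67.2% ± 0.857 of Alu counts in Ψ-IP, 65.3% ± 0.0649 in input and 64.1% ± 0.586 in flow-through, with Ψ-IP above both in non-overlapping libraries (exact permutation p = 0.1). Reads of 24 to 28 nt were 32.5% ± 0.398 with CMC and 31.6% ± 0.493 in mock-treated libraries (exact permutation p = 0.1). These length ranges correspond roughly to the piRNAs held by MIWI and by MILI, the PIWI proteins of meiotic germ cells. Shifts in length were not particular to the family. At 31 nt all other loci held 19.85%, 20.1% and 20.7% in Ψ-IP, 18.9%, 19.0% and 18.5% in input and 19.3%, 18.6% and 19.3% in flow-through. At 29 nt they were lower in Ψ-IP than in input. At 27 nt they held 8.25%, 8.30% and 8.30% with CMC and 7.60%, 7.60% and 7.63% in mock-treated libraries.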

How the data were processed

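The authors deposited 1 table per library that gives, without normalization, the read count at each interval and strand. Adapters were clipped with Cutadapt, reads of 14 to 44 nt were kept, tRNA fragments were set aside, the rest was mapped to mm10 with Bowtie 2 with at most 3 mismatches, and positions were intersected with UCSC repeats and piRNA clusters by BEDTools. The treatment of reads that map to several places is not given in the sources used here, and a read from a young B1 copy may match many copies. The labels and the methods give different size ranges for the gel cut, and the mock-treated group is named untreated in the titles.

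The counts were joined by locus and each comparison was fitted on its 6 libraries with edgeR 4.0.16 in R 4.3.3 (TMM scaling, quasi-likelihood test, Benjamini-Hochberg adjustment over all rows of the table, adjusted p below 0.01), on loci with more than 20 counts in total over the set and on sums per family, per repeat name and per cluster and family with an average of at least 10 counts. The authors' methods name DESeq2, which was run as an alternative (DESeq2 1.42.0). CPM are scaled to the TMM-normalized library size and differ slightly between comparisons. No use of molecular identifiers is described, so copies made by PCR count as reads. Shares and ratios were compared by two-sided exact permutation tests over libraries, which with 3 against 3 cannot go below 0.1. Scripts were tested on simulated data.

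Same-numbered mock-treated and CMC-treated libraries deviated together at loci averaging 50 counts or more (correlations of 0.115, 0.135 and 0.278), so the fit with the replicate number as a block is given where it changes a call. The text draws on the 5 most abundant loci and clusters, and on the 5 largest called rises and falls, loci from an average of at least 50 counts. Not all of them are printed in each comparison, and the largest cluster falls against flow-through are left out. The Gm14244 cluster was added after its value was seen, because its loci are described. The members, lists and tests were chosen with earlier results of these data known.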

Additional observations from a re-analysis of the deposited data

How the results depend on the processing

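Counts of called Alu loci moved with the test, the filter and single libraries. DESeq2 gave 55 higher and 179 lower loci in Ψ-IP against input, 112 lower against flow-through and 20 higher with CMC. A minimum average of 50 counts gave 35 and 59, 26 and 81, and 12 higher with CMC. A minimum of more than 5 counts in total gave 46 higher against input, 105 lower against flow-through and 5 lower with CMC, beside 1.19%, 1.01% and 0.388% of all loci. Counts summed over shared 5′ ends gave 200 lower against input, and 20 higher and 6 lower with CMC (7.87%, 0.901% and 0.270% of Alu ends), beside 11.7%, 1.17% and 1.03% of all ends. With the replicate block 6 loci and 1 cluster were lower with CMC, and DESeq2 also gave 1 lower cluster.

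The Alu sum passed the threshold in Ψ-IP against input with scaling from the table of loci (-0.227) and with the replicate block (-0.0934), did not pass against flow-through with scaling from the table of loci (-0.243), and passed with CMC under DESeq2 and the replicate block (0.113 and 0.109). The numbers were not taken to pair the immunoprecipitation libraries (correlations of 0.239, 0.289 and -0.0305 against input, and 0.079, 0.176 and -0.0572 against flow-through), and there the block also moved FAM above the threshold. The cause of these changes was not tested.

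Leaving out each library in turn gave 42 to 120 higher and 164 to 308 lower loci against input, 66 to 90 and 93 to 138 against flow-through, and 19 to 36 and 0 to 5 with CMC, with 0 to 1 loci higher in Ψ-IP and lower with CMC. Clusters ran from 5 to 13 higher and 10 to 18 lower against input, 4 to 7 and 39 to 50 against flow-through, and 1 to 8 and 0 to 1 with CMC. For clusters, the shares of all sums in these fits are not given. The ratio of Alu to B4 in Ψ-IP against input ran from -0.0654 to 0.00251. Length shares with CMC ran from -1.29 to 0.107 percentage points at 29 to 31 nt and from -0.356 to 0.550 up to 23 nt.

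Directions turned in these cases, besides antisense reads against input without the Gm14244 locus (1.26 percentage points). For length shares these were reads up to 23 nt with CMC (-0.290 percentage points with each locus counted once), 24 to 28 nt and above 31 nt against flow-through (2.21 with each locus counted once, 0.00285 at loci with more than 20 counts), and 30 nt and above 31 nt against input (1.82 and 0.802, each locus counted once). For names, B1 against input turned with DESeq2 or its size factors (-0.0150 each), without loci under 2 repeats (-0.0240) and without the top 5′ end (-0.0305). PB1 against flow-through (0.000901 at 24 to 33 nt, 0.00259 with the block and 0.00225 without loci under 2 repeats), PB1D10 without those loci (-0.0110 against flow-through, -0.0713 against input) and PB1D7 with CMC (0.000909 at 24 to 33 nt and 0.000729 with the block) also turned. With single libraries left out, B1 ran from -0.0215 to 0.0236, B1F from -0.120 to 0.0263 and PB1D10 from -0.00841 to 0.0333 against input, PB1 from -0.117 to 0.0710 and PB1D10 from 0.102 to 0.157 against flow-through and PB1D7 from -0.0312 to 0.0379 with CMC. At loci, the 30-nt form at chr15:74657263 turned to -0.0542 against input with the filter of more than 5 counts, and chr5:143763716 (0.0375) and the 31-nt form at chr7:73137906 (0.0333) turned with CMC at an average of at least 50 counts. In the same runs with a library left out, CMC gave -0.154 to 0.0485 at chr17:66206928, -0.146 to 0.0939 at chr5:143763716 and -0.128 to 0.0277 at chr7:73137906. The shortened 5′ ends and the fits without the top 5′ end or without loci under 2 repeats were chosen after seeing the data. A count of 0 at a locus does not show absence at these depths, where 41447 of the 88340 Alu loci had a single count in all.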
